A study of Mus musculus with 8 samples.

Results

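The 7 keratin genes described here are Krt1 and Krt10, the pair made by the upper cell layers of the epidermis; Krt4 and Krt13, the pair made by the upper layers of internal stratified epithelia such as those of the oesophagus and vagina; and Krt6a, Krt6b and Krt16, which keratinocytes make in wounds and under stress. They were taken by gene symbol from the 52325 genes of the count table, of which 55 carry a keratin symbol. RNA was sequenced from endometrium cut by laser out of frozen sections of the uterus, in 4 Thra1PV/+ and 4 WT female mice that were all synchronized to metestrus. Thra1PV/+ mice carry, by knock-in, the PV frameshift mutation in 1 allele of Thra in all tissues, which gives a dominant negative thyroid hormone receptor TRα1, and WT mice carry no mutant allele. The ages of these mice are not given in the sources used here. Each library held between 48791602 and 59818887 estimated counts, and all 7 keratins passed the filter on low counts, which left 18174 genes for the test.

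Keratin filaments are built from pairs of a type I keratin (here Krt10, Krt13 and Krt16) and a type II keratin (here Krt1, Krt4, Krt6a and Krt6b). In stratified epithelia, basal cells make Krt5 and Krt14, and cells that leave the basal layer switch to Krt1 and Krt10 in the epidermis or to Krt4 and Krt13 in internal mucosa. The endometrium is normally lined by a simple columnar epithelium, which makes Krt7, Krt8, Krt18 and Krt19. The members therefore address which program of stratified differentiation was transcribed in the mutant endometrium.

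Thra itself was measured at 127, 45.8, 67.8 and 80.0 CPM (counts scaled to library size after TMM normalization) in Thra1PV/+ replicates 1 to 4 and at 110, 104, 50.3 and 47.4 CPM in WT replicates 1 to 4. The genotypes overlapped, and since the counts sum both alleles they do not show which libraries carry the mutation. One library, WT replicate 1, stood apart. The summed level of 5 smooth muscle genes was 9424 CPM in it, against 502, 336 and 779 CPM in WT replicates 2 to 4 and 101 to 395 CPM in the Thra1PV/+ libraries. With edgeR, 0 of the 5 were called, and all 5 had an unadjusted p under 0.05 with lower values in Thra1PV/+. DESeq2 gave an adjusted p for Des alone, at 0.104, so it could not call the other 4. Acta2 (smooth muscle actin), the highest of the 5 in mean TPM, had 217689 counts in WT replicate 1 and 6320 to 14199 counts in the other WT libraries. The same library had the lowest counts of Krt13, Krt5, Krt14 and Krt15 of all 8, and some values are also given without it. These are bulk libraries, in which more cells of a type and more RNA per cell cannot be told apart.

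Krt13 was the 1 member called higher in Thra1PV/+ endometrium by edgeR's quasi-likelihood test, where a call needs at least a 2-fold change with an adjusted p of at most 0.1. Over all tested genes, 0.924% were called higher and 0.990% were called in either direction. An unadjusted edgeR p under 0.05 was found for 1775 of the 18174 tested genes, counting both directions. The number of genes called fell from 180 to 116, 81 and 114 without Thra1PV/+ replicate 2, Thra1PV/+ replicate 3 and WT replicate 4. With DESeq2, the test of the study's methods, 6 of the 7 members were called higher, all but Krt10, as were 2.61% of the 21758 genes to which it gave an adjusted p. In 5 of the 7, every Thra1PV/+ library lay above every WT library, as in 3.55% of all tested genes; Krt10 and Krt4 were the exceptions. The median log2 fold change was 4.43 over the 7 members and -0.05 over all tested genes. The members were chosen with such results known, so these shares describe them and test nothing about the choice.

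**Figure D1:**
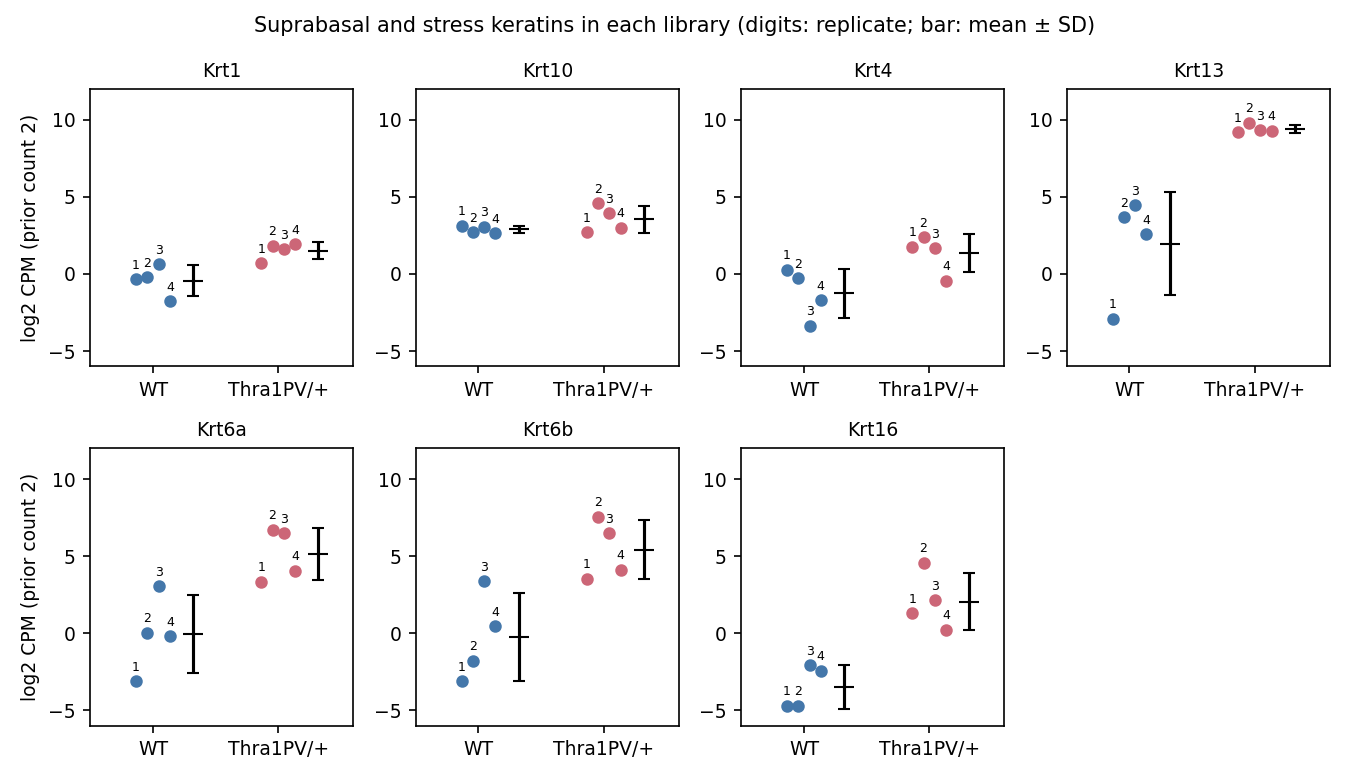
Log2 CPM (prior count of 2) of the 7 keratins in each library, by genotype; digits are replicate numbers and black bars are the mean ± SD of 4 libraries. Krt13 lay within a narrow range in all Thra1PV/+ libraries, Krt10 overlapped between genotypes, and Krt6a, Krt6b and Krt16 were spread widely within both genotypes.

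Krt13, the type I keratin of internal stratified epithelia, lies at chr11:100117327-100121566 on the minus strand of GRCm38 (ENSMUSG00000044041.4). It was measured at 594, 895, 642 and 628 CPM in Thra1PV/+ replicates 1 to 4 and at 0.0954, 12.7, 22.1 and 5.99 CPM in WT replicates 1 to 4. All mutant libraries were high and lay within 1.51-fold of each other, while the WT libraries were low and ranged from 5 to 1110 counts. The mean was 690 ± 139 CPM in Thra1PV/+ and 10.2 ± 9.44 CPM in WT endometrium (SD, n = 4 each), a log2 fold change of 6.08 ± 1.22 (SE; edgeR adjusted p = 0.0944). The call was close to its threshold. It was lost when any of Thra1PV/+ replicates 1 to 4 or WT replicates 2 to 4 was left out (edgeR adjusted p of 0.129 to 0.227), at log2 fold changes of 5.89 to 6.81, and was kept without WT replicate 1 (log2 fold change of 5.71, edgeR adjusted p = 0.00522).

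Krt4, the type II partner of Krt13, lies at chr15:101918535-101924735 on the minus strand (ENSMUSG00000059668.5). It had 185, 255, 154 and 40 counts in Thra1PV/+ replicates 1 to 4 and 61, 43, 3 and 13 counts in WT replicates 1 to 4. Krt4 was thus low in every library, and Thra1PV/+ replicate 4 lay below WT replicates 1 and 2. The means were 3.10 ± 1.84 and 0.568 ± 0.498 CPM (SD, n = 4 each), and the difference did not pass the test (log2 fold change of 2.44 ± 0.88, edgeR adjusted p = 0.406). Without WT replicate 1, which had the most Krt4 of the WT libraries, the log2 fold change was 3.11. DESeq2 called Krt4 higher with an adjusted p of 0.0658, the lowest over the alternatives, which reached 0.753.

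Promoter sequences (250 bases before to 50 after a transcription start, RefSeq, GRCm38.p6) were at hand for Krt13 and Krt10, 2 of the 7 members. They are shown because these are the 2 type I keratins of the suprabasal pairs, Krt13 called higher and Krt10 not. The table has no entry for Krt1, Krt4, Krt6a, Krt6b and Krt16. Both strands were searched for the AP-1 core TGANTCA, the KLF-type box CACCC, the GC box GGGCGG, the nuclear receptor half-site AGGTCA and the TATA box TATAAA, and capitals mark the matches. In the same order, 7.81%, 57.5%, 35.7%, 16.3% and 13.6% of 32851 promoters of this length hold a match. Krt13 has 2 annotated starts, and all sequences are on the minus strand.
Krt13, upstream start, chr11:100121517-100121816: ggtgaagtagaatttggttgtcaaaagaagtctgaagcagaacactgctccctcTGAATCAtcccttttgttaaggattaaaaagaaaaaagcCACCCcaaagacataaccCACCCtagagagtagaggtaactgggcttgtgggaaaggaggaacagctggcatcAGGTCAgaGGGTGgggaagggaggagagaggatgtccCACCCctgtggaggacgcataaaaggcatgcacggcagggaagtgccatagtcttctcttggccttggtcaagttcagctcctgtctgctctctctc
Krt13, downstream start, chr11:100120528-100120827: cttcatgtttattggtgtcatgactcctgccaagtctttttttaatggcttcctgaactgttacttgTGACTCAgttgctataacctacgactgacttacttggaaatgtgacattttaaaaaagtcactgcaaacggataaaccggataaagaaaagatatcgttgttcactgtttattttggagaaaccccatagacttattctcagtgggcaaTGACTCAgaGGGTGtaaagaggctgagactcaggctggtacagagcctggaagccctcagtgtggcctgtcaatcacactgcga
Krt10, chr11:99389315-99389614: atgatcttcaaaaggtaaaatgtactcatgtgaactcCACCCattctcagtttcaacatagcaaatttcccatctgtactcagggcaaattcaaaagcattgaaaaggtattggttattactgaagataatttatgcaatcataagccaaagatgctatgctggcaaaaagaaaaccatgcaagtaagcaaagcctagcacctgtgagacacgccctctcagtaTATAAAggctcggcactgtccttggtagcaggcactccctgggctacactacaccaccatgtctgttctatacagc

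The upstream Krt13 window holds 1 match to TGANTCA, 4 to CACCC and 1 to AGGTCA, and the downstream window holds 2 to TGANTCA and 1 to CACCC. The Krt10 window holds 1 match to CACCC and 1 to TATAAA, the latter 26 bases before the start (position -26). No match to GGGCGG was found in any of the 3 windows, and the CACCC letters occur in most promoters. The matches describe the windows, and binding was not measured in these samples.

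Krt10, the type I keratin of the suprabasal epidermis (chr11:99385254-99389364, minus strand, ENSMUSG00000019761.10), was measured at 6.48, 24.2, 15.5 and 7.90 CPM in Thra1PV/+ replicates 1 to 4 and at 8.66, 6.57, 8.26 and 6.26 CPM in WT replicates 1 to 4. Thra1PV/+ replicates 2 and 3 were high, and the other mutant libraries lay within the WT range. The log2 fold change was 0.86 ± 0.41 (edgeR adjusted p = 0.564), and on the deposited TPM scale it was 0.16 with a pseudocount of 1, so Krt10 did not pass the test on either scale. Krt1, its type II partner (chr15:101845426-101850794, minus strand, ENSMUSG00000046834.6), had 87, 172, 147 and 217 counts in Thra1PV/+ replicates 1 to 4 and 39, 46, 76 and 12 counts in WT replicates 1 to 4. The genotypes did not overlap but came close, since the lowest mutant library had 87 counts and the highest WT library 76 counts. The log2 fold change was 1.83 ± 0.54 (edgeR adjusted p = 0.303). DESeq2 called Krt1 higher with an adjusted p of 0.0188, the lowest over the alternatives, which reached 0.647. Limma voom also called Krt1 higher (log2 fold change of 2.54, adjusted p = 0.0667).

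Krt6a, a type II keratin induced in wounded epidermis (chr15:101689910-101694307, minus strand, ENSMUSG00000058354.6), was measured at 10.2, 104, 88.7 and 16.5 CPM in Thra1PV/+ replicates 1 to 4 and at 0.0763, 0.975, 8.32 and 0.837 CPM in WT replicates 1 to 4. Krt6b, its near copy (chr15:101676023-101680287, minus strand, ENSMUSG00000023041.6), was measured at 11.7, 189, 90.6 and 17.2 CPM and at 0.0763, 0.253, 10.4 and 1.34 CPM in the same libraries. Krt16, the usual type I partner of both (chr11:100246091-100248902, minus strand, ENSMUSG00000053797.10), had 130, 1180, 212 and 64 counts in Thra1PV/+ replicates 1 to 4 and 0, 0, 10 and 7 counts in WT replicates 1 to 4. For all 3 genes the genotypes did not overlap. Thra1PV/+ replicate 2 was the highest library for each, and Thra1PV/+ replicate 3 was second. WT replicate 3 was the highest WT library for each, and for Krt6a and Krt6b it lay just below Thra1PV/+ replicate 1.

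None of the 3 stress keratins passed the edgeR test. The log2 fold changes were 4.43 ± 1.36 for Krt6a, 4.67 ± 1.57 for Krt6b and 6.51 ± 1.49 for Krt16 (edgeR adjusted p of 0.326, 0.365 and 0.154). The unadjusted edgeR p was under 0.05 for all 3, and DESeq2 called all 3 higher (adjusted p of 0.00399, 0.00807 and 1.38e-05, the lowest over the alternatives, which reached 0.671, 0.705 and 0.379). The highest mutant library exceeded the lowest by 10.3-fold for Krt6a, 16.2-fold for Krt6b and 21.4-fold for Krt16, against 1.51-fold for Krt13. Without WT replicate 3, the log2 fold changes were 6.47 for Krt6a and 7.16 for Krt6b, and neither was called. Without Thra1PV/+ replicate 2, the library with the most of all 3, they were 3.91 for Krt6a, 3.72 for Krt6b and 4.90 for Krt16.

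The counts of the stress keratins carry an added uncertainty because their transcripts share sequence. Of the 31-base words of the longest Krt6a transcript, 49.3% also occur in Krt6b transcripts, and 50.3% of those of Krt6b occur in Krt6a. Over 1659 aligned coding bases the genes differ at 37 positions (97.8% identity), and the longest identical run is 280 bases. The 120 coding bases where they differ most, at 8 positions, are shown to make this visible, from GENCODE M21 transcripts on GRCm38 (coding bases 304 to 423 of both genes, each within a single exon on the minus strand), with the differing bases in capitals.
Krt6a, chr15:101693826-101693945: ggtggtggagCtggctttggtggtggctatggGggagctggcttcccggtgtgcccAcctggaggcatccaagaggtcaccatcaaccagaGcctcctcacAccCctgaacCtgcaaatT
Krt6b, chr15:101679801-101679920: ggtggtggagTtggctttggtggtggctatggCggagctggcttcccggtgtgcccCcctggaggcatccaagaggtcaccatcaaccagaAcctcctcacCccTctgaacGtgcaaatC

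A read that falls between such positions cannot be assigned to one gene by its sequence. Summed to 1 gene, Krt6a and Krt6b had a log2 fold change of 4.57 (edgeR adjusted p = 0.352), within the SE of each alone. For Krt16, 32.2% of the words occur in the pseudogene Gm11597, which had 0 counts in all libraries, and 19.7% occur in Krt14, which was far more abundant. Of the words of Krt1, Krt10, Krt4 and Krt13, at most 1.14% occur in any other gene.

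Levels of different genes were compared on the deposited TPM, which are per transcript length and whose distributions are nearly the same in all libraries. In Thra1PV/+ endometrium Krt13 was at 498 ± 85.1 TPM (SD, n = 4), above all other members in all 4 libraries without overlap. Krt6b followed at 39.9 ± 43.1, Krt6a at 27.3 ± 24.3, Krt10 at 16.3 ± 6.29, Krt16 at 5.84 ± 8.03, Krt4 at 1.73 ± 1.14 and Krt1 at 1.56 ± 0.591 TPM. The ranges of neighbours below Krt13 overlapped, and Krt6a exceeded Krt10 in 2 of 4 libraries. In WT endometrium Krt10 had the highest mean (13.9 ± 2.26 TPM) and exceeded Krt13 (7.21 ± 6.51 TPM) in 3 of 4 libraries. The other members were at 1.73 TPM or less on average. Krt13 made up 75.9% to 95.2% of the summed TPM of the 7 members in the mutant libraries and 0.350% to 39.1% in the WT libraries.

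**Figure D2:**
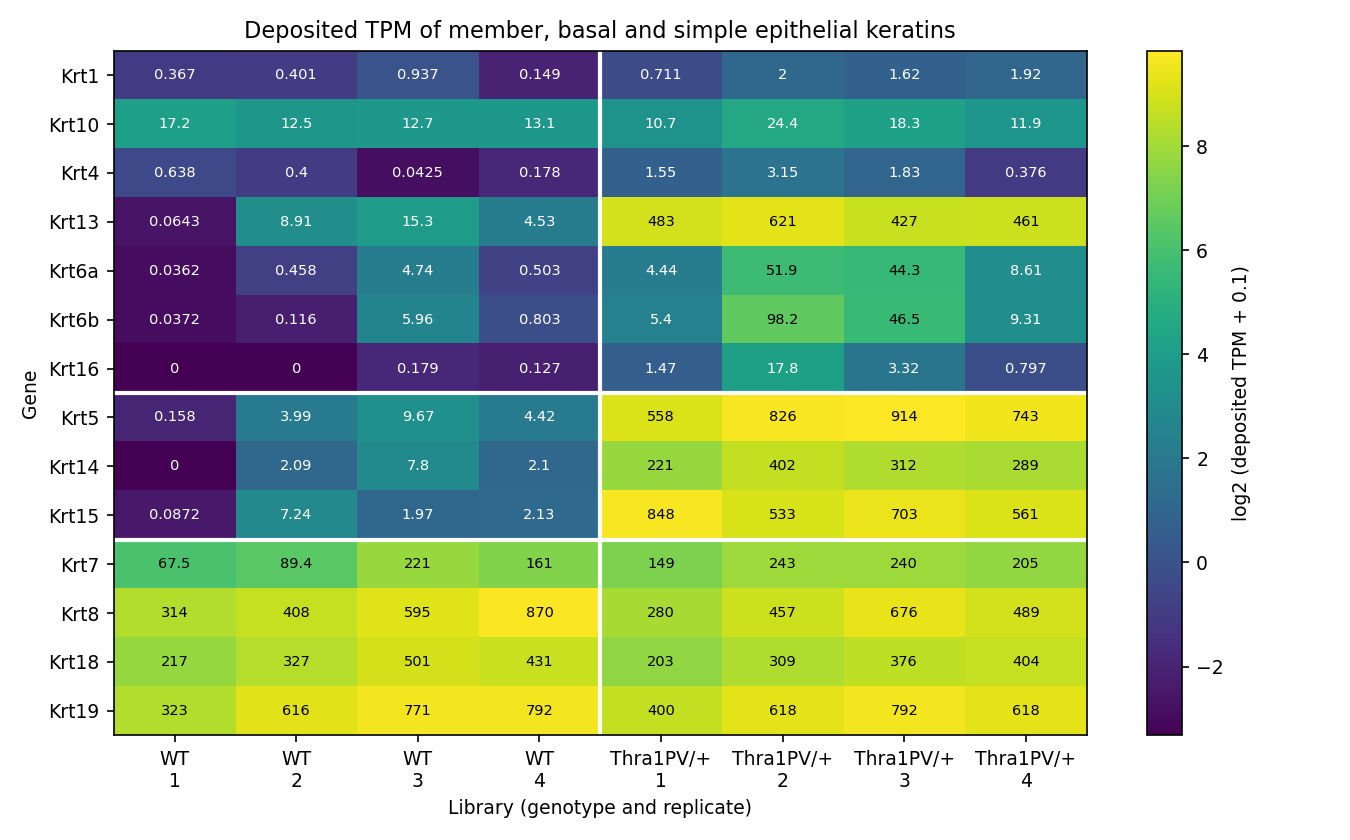
Deposited TPM (printed in each cell; colour on a log2 scale with 0.1 added) of the 7 members, 3 basal keratins and 4 simple epithelial keratins in the 8 libraries. In Thra1PV/+ libraries Krt13 was at 427 to 621 TPM, in the range of the basal and simple epithelial keratins, while Krt4 stayed at 0.376 to 3.15 TPM.

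Ratios between members were compared within each library as log2 ratios of CPM, with a two-sided exact permutation test over 70 arrangements whose smallest possible p is 0.0286, and with Benjamini-Hochberg adjustment over the 6 ratios. The mucosal over epidermal type I ratio, Krt13/Krt10, was 6.51, 5.21, 5.37 and 6.31 in Thra1PV/+ replicates 1 to 4 and -6.02, 0.95, 1.42 and -0.06 in WT replicates 1 to 4. All mutant libraries lay above all WT libraries, so the exact p was at its smallest value of 0.0286, which became 0.171 after adjustment. Without WT replicate 1 the ratio still differed by 5.08 between genotypes. The corresponding type II ratio, Krt4/Krt1, averaged -0.17 ± 1.53 in Thra1PV/+ and -0.84 ± 2.12 in WT endometrium (SD, n = 4 each) and overlapped (exact adjusted p = 0.657). Neither ratio passed the threshold of 0.1. The adjusted p of Krt13/Krt10 depends on the p of the other 5 ratios as well as its own, which could not have been lower. Whether the type I and type II ratios differ was not tested.

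Within pairs, Krt4/Krt13 was -7.43, -7.42, -7.66 and -9.73 in Thra1PV/+ replicates 1 to 4 and 3.17, -3.97, -7.82 and -4.28 in WT replicates 1 to 4. Krt13 exceeded its partner in every library other than WT replicate 1, and the genotypes overlapped through WT replicate 3 (exact p = 0.114, adjusted p = 0.229). The genotype difference of -4.84 was -2.71 without WT replicate 1. On the TPM scale the median Krt4/Krt13 ratio in the mutant libraries was 0.00374. Krt1/Krt10 averaged -2.04 ± 0.74 in Thra1PV/+ and -3.32 ± 0.87 in WT endometrium (exact p = 0.0571, adjusted p = 0.171), so Krt10 exceeded Krt1 in both genotypes. Krt6a/Krt16 (3.09 ± 1.17 and 3.42 ± 1.77) and Krt6b/Krt6a (0.29 ± 0.38 and -0.21 ± 1.10) differed by less than the spread between WT libraries (exact adjusted p = 0.657 each). Krt16 had 0 counts in WT replicates 1 and 2, so the Krt6a/Krt16 ratio there depends on the prior count. The genotype difference of -0.33 was -1.29 with a prior count of 0.5.

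**Figure D3:**
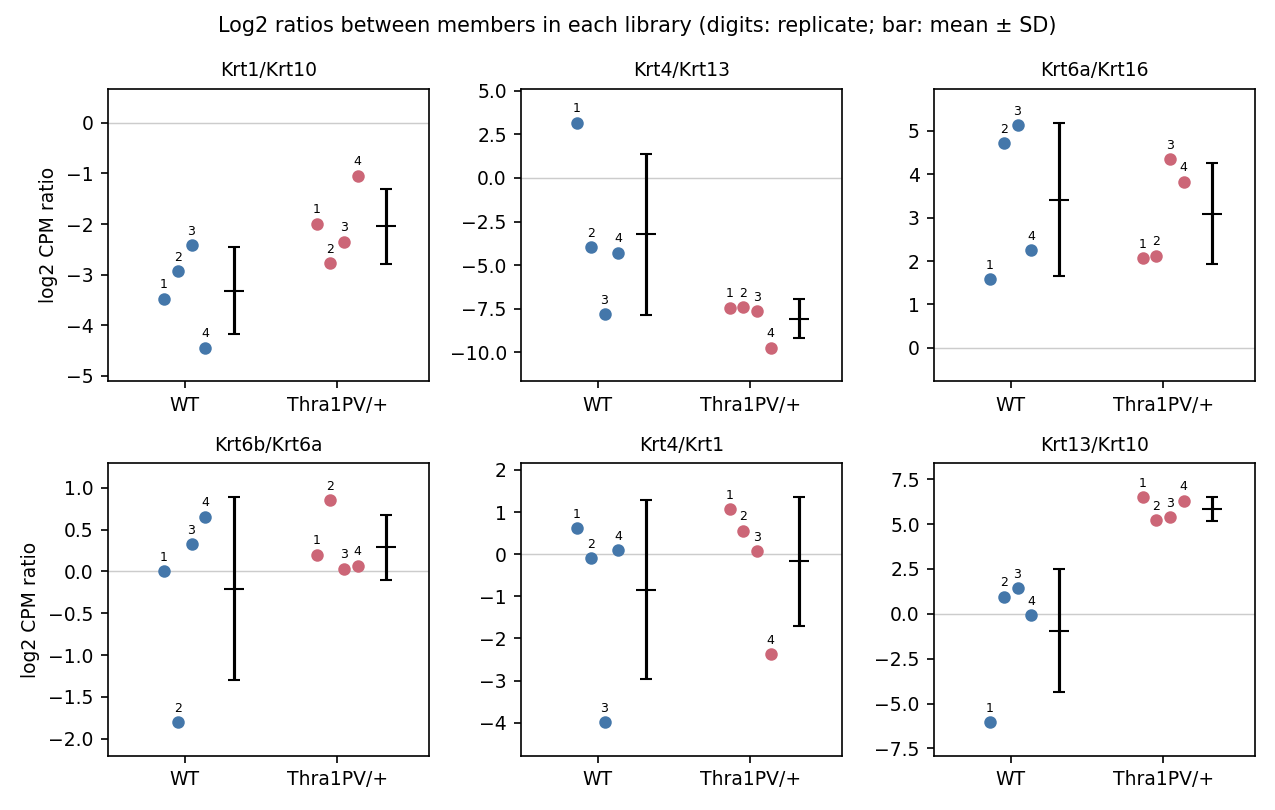
Log2 CPM ratios of 6 pairs of members in each library, by genotype; digits are replicate numbers and black bars are the mean ± SD of 4 libraries. The Krt13/Krt10 ratio was the 1 pair without overlap between genotypes, with mutant values of 5.21 to 6.51 and WT values of -6.02 to 1.42.

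Among the other 48 keratin genes, 22 were tested, and their median log2 fold change was 0.75. By edgeR 6 were called higher in Thra1PV/+ endometrium, against 0.924% of all tested genes, and 0 lower. There were 0 lower also by DESeq2 and at an unadjusted p under 0.05. The basal keratins Krt5, Krt14 and Krt15 were all called, with log2 fold changes of 7.43 ± 1.10, 6.76 ± 1.35 and 7.84 ± 1.17 (edgeR adjusted p of 0.0268, 0.0928 and 0.0272). Krt5, the highest of the 3 in mean TPM, was at 558 to 914 TPM in mutant and 0.158 to 9.67 TPM in WT libraries, and its TPM was 1.16 to 2.14 times that of Krt13 in the mutant libraries. The call of Krt14 was lost without any 1 of 6 libraries, all but WT replicates 1 and 3, and those of Krt5 and Krt15 were lost without WT replicate 4. With 1 library left out, the log2 fold changes were 7.07 to 8.14 for Krt5, 6.40 to 7.94 for Krt14 and 7.49 to 9.06 for Krt15.

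The other called keratins were Krt17, Krt78 and Krt33b. Krt17, which is induced in wounded skin, had a log2 fold change of 4.45 ± 0.85 (edgeR adjusted p = 0.0791) and, like Krt14, was called in 2 of 8 fits that left out 1 library, those without WT replicate 1 (log2 fold change of 5.66) and without WT replicate 3. Krt78, a type II keratin of stratified epithelia, had 133, 463, 393 and 227 counts in Thra1PV/+ replicates 1 to 4 and 3, 9, 8 and 0 counts in WT replicates 1 to 4 (log2 fold change of 5.93 ± 0.91, edgeR adjusted p = 0.0304), a call lost without Thra1PV/+ replicate 3. Krt33b, a hair keratin, had 22 to 47 counts in mutant and 0 or 1 in WT libraries, at least 9.52-fold higher against a floor of 3 counts per library. Its call was kept whichever library was left out. It was lost in 2 of 16 alternative fits, among them the one with a replicate block (edgeR adjusted p = 0.109). The simple epithelial keratins Krt7, Krt8, Krt18, Krt19 and Krt20 were not called by edgeR or DESeq2 (0 of 5 had an unadjusted p under 0.05), with log2 fold changes of -0.26 to 0.95 and overlapping genotypes. Krt8 was at 476 ± 162 TPM in Thra1PV/+ and 547 ± 245 TPM in WT endometrium (SD, n = 4 each).

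**Figure D4:**
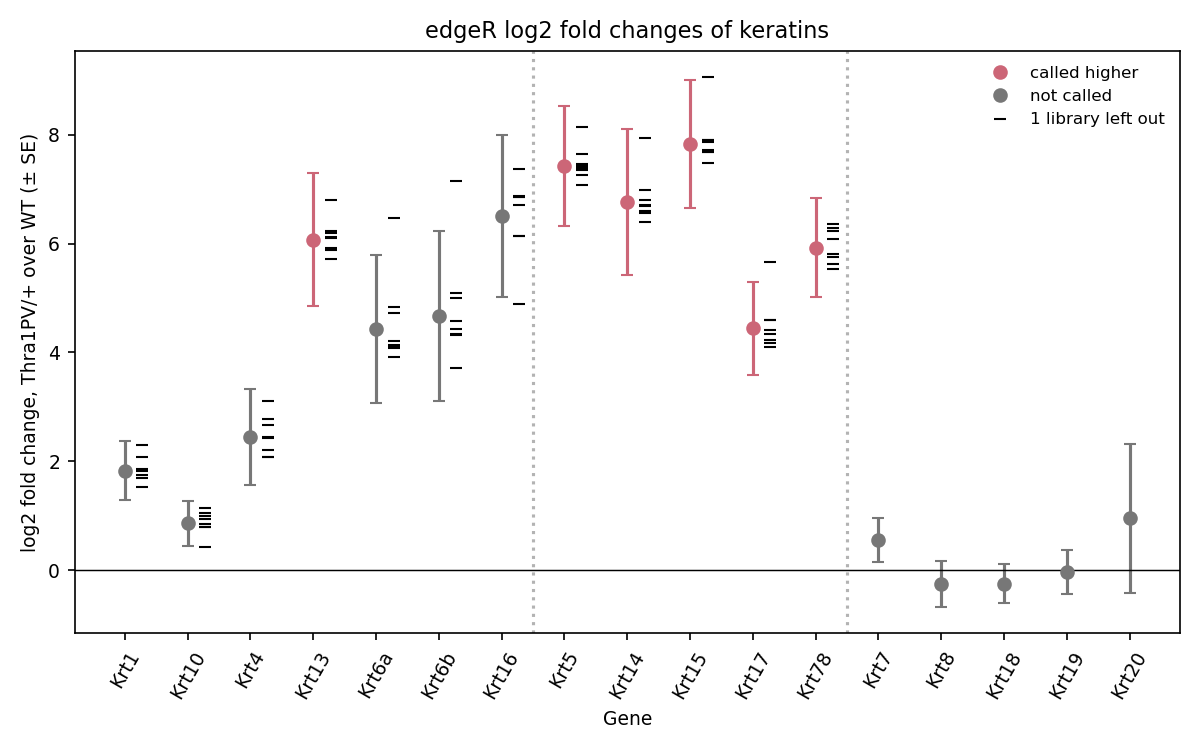
Log2 fold changes (Thra1PV/+ over WT, edgeR, ± SE) of the 7 members (left), 5 other keratins called higher (middle) and 5 simple epithelial keratins (right); red points were called, and black dashes beside the members and the called keratins are the values with 1 library left out. Krt13 and the basal keratins had log2 fold changes of 6.08 to 7.84, while those of Krt10 and the simple epithelial keratins were under 1.

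Genes that accompany each program were read from fixed lists. Of 12 genes of late epidermal differentiation, 3 were abundant enough to be tested. Both edgeR and DESeq2 called 2 of them higher, against 0.924% and 2.61% of all genes. One was Asprv1, a protease that processes filaggrin (log2 fold change of 2.87 ± 0.57, edgeR adjusted p = 0.0905). The other was Casp14, a protease of cornifying cells (4.83 ± 0.72, edgeR adjusted p = 0.0268). The call of Asprv1 was kept in 1 of the 8 fits that left out a library, the one without Thra1PV/+ replicate 1. That of Casp14 was kept in all but the one without WT replicate 4. Casp14 also lost its call on log2(TPM + 1) (log2 fold change of 0.56, limma adjusted p = 0.212). With a replicate block it lost its call at a log2 fold change of 4.81 (edgeR adjusted p = 0.104). Over 16 alternative fits, Asprv1 lost its call in 11 and Casp14 in 3. Casp14 had 19 to 88 counts in mutant and 1 to 4 in WT libraries. Its log2 fold change was 4.45 to 5.61 with 1 library left out. Lor (loricrin, a major protein of the cornified envelope) had 35 to 80 counts in mutant and 37 to 136 in WT libraries. Flg2 and Dsc1 had 0 counts in all 8 libraries and Krt2 at most 3. Flg (filaggrin) had 35 and 34 counts in Thra1PV/+ replicates 2 and 3 and 0 in all others, and Cdsn (corneodesmosin) had 724 and 302 counts in these 2 libraries, 0 in Thra1PV/+ replicates 1 and 4, and 10, 8, 25 and 6 in WT replicates 1 to 4. Among the mutant libraries, Flg and Cdsn were thus highest in the 2 with the most Krt6a, Krt6b and Krt16.

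Of 10 genes listed for internal stratified epithelia, 6 were tested. Whether these genes are particular to internal epithelia, and not shared with the epidermis, was not tested. Krt78 was the 1 called by edgeR, and DESeq2 called 4 higher, Krt78, Cnfn, Scel and Ecm1. At an unadjusted edgeR p under 0.05 there were 5 of the 6, against 1775 of all 18174 tested genes. Scel (sciellin, a cornified envelope precursor) did not overlap between genotypes, with a log2 fold change of 2.61 ± 0.74 (edgeR adjusted p = 0.274). Of the 8 fits that left out a library, edgeR called Scel in 1, the one without WT replicate 3 (adjusted p = 0.0517). Mal (a membrane sorting protein) did not overlap between genotypes but had a log2 fold change of 0.93 ± 0.30 (edgeR adjusted p = 0.344). Ecm1 (an extracellular matrix protein) and Cnfn (cornifelin) were highest in Thra1PV/+ replicate 2, with 20399 and 2388 counts, and Thra1PV/+ replicate 4 had 2596 and 2 counts. Crnn (cornulin), a marker of oesophageal epithelium, had 7, 113, 80 and 22 counts in Thra1PV/+ replicates 1 to 4 and 0 in all WT libraries, while Rhcg had 0 counts in all 8 libraries and Krt76 had 1 count in a single WT library. Sprr3 had 0, 175, 13 and 1 counts in Thra1PV/+ replicates 1 to 4 and 1, 7, 3 and 4 counts in WT replicates 1 to 4.

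Of 9 genes of wounding and hyperproliferation, 8 were tested and Krt17 was the 1 called by edgeR (median log2 fold change of 2.72). At an unadjusted edgeR p under 0.05 there were 6 of the 8, against 1775 of all 18174 tested genes. DESeq2 called 5 higher, Krt17, S100a9, S100a7a, Sprr2d and Gjb6. Gjb2 (log2 fold change of -0.27, edgeR adjusted p = 0.936) and Il36a (0.76, edgeR adjusted p = 0.903) overlapped between genotypes and were called by neither test. Without WT replicate 1, edgeR also called Gjb6 (adjusted p = 0.0886). Sprr2d (another cornified envelope precursor), the highest in mean TPM, had 13718, 110785, 72652 and 15142 counts in Thra1PV/+ replicates 1 to 4 and 379, 114, 1395 and 4517 counts in WT replicates 1 to 4. The genotypes did not overlap, and Thra1PV/+ replicates 2 and 3 were again the highest (log2 fold change of 5.01 ± 1.34, and 4.34 to 6.42 with 1 library left out; edgeR adjusted p = 0.240). S100a8 and S100a9, which form calprotectin and are made by stressed keratinocytes and by neutrophils, were highest in Thra1PV/+ replicate 2 (9253 and 20284 counts) and overlapped between genotypes. Of 13 regulators of stratified differentiation, 12 were tested. By edgeR 5 were called higher, Trp63, Grhl1, Grhl3, Zfp750 and Notch3, against 0.924% of all tested genes. DESeq2 called these and Ovol1, against 2.61% called higher of all genes given an adjusted p. An unadjusted edgeR p under 0.05 was found for 7 of the 12, against 1775 of all 18174 tested genes. Trp63, the master regulator of stratified epithelium, had 3073, 4608, 3648 and 3036 counts in Thra1PV/+ replicates 1 to 4 and 24, 113, 42 and 32 counts in WT replicates 1 to 4 (log2 fold change of 6.11 ± 0.53, edgeR adjusted p = 0.00333). Its range over the mutant libraries was narrow, like that of Krt13, and its call was kept whichever library was left out, as were those of Grhl1 and Notch3. The call of Grhl3 was lost without Thra1PV/+ replicates 2, 3 or 4 or WT replicates 2 or 4, and that of Zfp750 without any library other than WT replicate 3. Pax9, a regulator in oesophageal epithelium, had at most 9 counts in any library.

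Markers of other cells were read in the same libraries. The summed level of 5 neutrophil genes was 30.7, 123, 74.2 and 38.7 CPM in Thra1PV/+ replicates 1 to 4 and 15.7, 6.18, 8.06 and 41.1 CPM in WT replicates 1 to 4. It was highest in the 2 mutant libraries with the most Krt6a, Krt6b and Krt16, 0 of its 4 tested genes were called by edgeR (2 had an unadjusted p under 0.05, and DESeq2 called 1), and Csf3r (the receptor of a neutrophil growth factor) was its highest gene in mean TPM; Ly6g, a defining marker, had 29 to 54 counts in mutant and 4 to 107 in WT libraries. The summed level of the 5 smooth muscle genes was 265, 101, 109 and 395 CPM in Thra1PV/+ replicates 1 to 4, lowest in the same 2 libraries. The part of these cells in the keratin values was not tested.

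Of 8 endometrial genes 0 were called by edgeR or DESeq2, and 0 had an unadjusted p under 0.05 (median log2 fold change of -0.26), and their summed level was 1342, 507, 639 and 985 CPM in Thra1PV/+ replicates 1 to 4 and 1503, 1990, 724 and 837 CPM in WT replicates 1 to 4. Hoxa10 and Hoxa11, which give the uterus its regional identity, had 569 to 9208 and 500 to 7712 counts in mutant libraries and 1219 to 27978 and 1122 to 16132 counts in WT libraries. Both were lowest in Thra1PV/+ replicates 2 and 3, and their log2 fold changes (-2.01 and -1.72) were the 2 lowest of the 8 endometrial genes. Without WT replicate 1, the log2 fold changes of Hoxa10 and Hoxa11 were -1.17 and -1.18 (edgeR adjusted p of 0.889 and 0.884). With all 8 libraries, those of Esr1 and Msx1 were -0.21 and -0.28. Wnt7a (0.81) and Foxa2 (0.27) were the 2 with a log2 fold change above 0. Of the 4 most posterior Hox genes, none passed the filter: Hoxa13, a gene of cervix and vagina, had 3 to 12 counts in all 8 libraries and the others at most 1 count in any. Of 5 genes of oviduct and ciliated epithelium, Foxj1 (a regulator of motile cilia) was called lower, with a log2 fold change of -2.54 ± 0.27 (edgeR adjusted p = 0.00723), and Ovgp1, an oviduct glycoprotein, was called lower by DESeq2 (adjusted p = 0.0391) and not by edgeR (adjusted p = 0.352, and 0.212 to 0.710 with a library left out). Of 17 measured genes of hair follicle and melanocyte, 5 were tested and 0 called by edgeR or DESeq2 (0 at an unadjusted p under 0.05), and Pmel, the highest of them in mean TPM, had 62 to 438 counts. The list leaves out the hair keratin Krt33b, which was called higher (above). It also leaves out Krt75, a hair follicle keratin that DESeq2 called higher and edgeR did not (log2 fold change of 4.49). Without WT replicate 1, edgeR called Krt75 too (log2 fold change of 6.12, adjusted p = 0.0983). The list's count of 0 thus does not hold for all hair keratins.

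**Figure D5:**
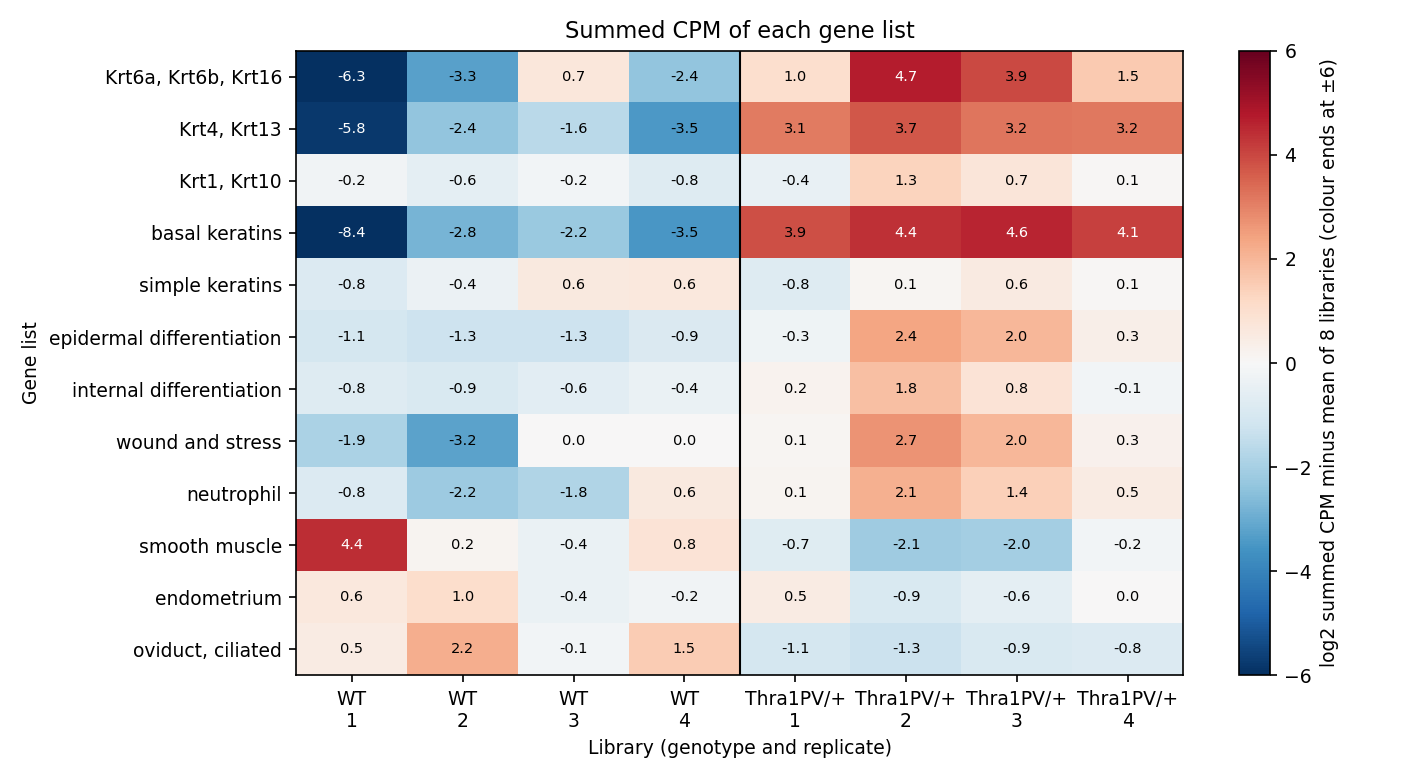
Summed CPM of 12 gene lists in each library, as log2 difference from the list's mean over the 8 libraries (printed in each cell). Krt4 and Krt13 together were nearly even over the mutant libraries, while Krt6a, Krt6b and Krt16 together were highest in Thra1PV/+ replicates 2 and 3, where the epidermal, internal, wound and neutrophil lists were also highest and smooth muscle lowest.

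The genes most like each member were found by the root-mean-square (RMS) difference of mean-centred log2 CPM over the 8 libraries, among 14636 other genes. This measure includes the difference between genotypes, so the genes it finds tend to share the member's fold change, and their calls add no separate evidence. Krt13 was closest to Krt14 (0.54), Pkp1 (plakophilin, a desmosome protein; 0.72) and Krt5 (0.75), all called higher. Krt10 was closest to Sbsn (suprabasin, a protein of suprabasal epidermis; 0.24), Smpdl3b (0.27) and Soat2 (0.27), none of them called. Krt1 was closest to Sytl1 (0.46), Rapgefl1 (0.55) and Palmd (0.57), and Krt4 to Stk26 (0.72), Ptprz1 (0.81) and Nebl (0.82). Of these 6, DESeq2 called all higher, and edgeR called Palmd and Ptprz1, the latter in 2 of 8 fits that left out a library, those without WT replicates 2 and 3. Without WT replicate 3, edgeR also called Rapgefl1.

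Krt6a and Krt6b shared 2 of their 3 closest genes, the airway-type serine protease gene Tmprss11b (0.74 and 0.81) and Akr1c18 (0.63 and 1.03), which encodes an enzyme that inactivates progesterone. The third was Rbp2 (0.86) for Krt6a and Spink5 (a protease inhibitor of the upper epidermis; 0.96) for Krt6b. Krt16 was closest to Pglyrp4 (0.70), Ifi202b (0.79) and S100a14 (0.84). Of these 7 genes, S100a14 was called higher by edgeR (log2 fold change of 4.94, adjusted p = 0.0202) and the other 6 were not. DESeq2 called all 7 higher, and without WT replicate 3 edgeR also called Tmprss11b, Akr1c18, Rbp2 and Spink5. Without Thra1PV/+ replicate 4, edgeR also called Pglyrp4 (adjusted p = 0.0984). Among the members themselves, Krt6a and Krt6b were the most alike (RMS difference of 0.75) and Krt10 and Krt13 the least (4.01).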

How the data were processed

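The authors prepared stranded mRNA libraries from laser-captured endometrium of 4 Thra1PV/+ and 4 WT mice for paired-end Illumina sequencing, used Trimmomatic for read trimming and salmon for quantification on mm10 (versions not given in the sources used here). The authors deposited unnormalized estimated counts of each gene and a table of TPM, whose sorted values differed by at most 0.291 between libraries at any rank, the form quantile normalization gives. The deposited TPM table has 1 further column of values, which matches no sample and was not used.

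Estimated counts were rounded to whole numbers. Gene identifiers were matched without version to GENCODE M21 symbols (52220 of 52325 matched; the others held at most 0.00897% of a library's counts). Genes passing filterByExpr (minimum count 10, minimum total count 15) were normalized by TMM and compared with edgeR 4.0.16 (quasi-likelihood test, genotype as the only term, Benjamini-Hochberg adjustment over all 18174 genes) in R 4.3.3. A call needed at least a 2-fold change with an adjusted p of at most 0.1, the thresholds of the study's methods. SEs are the log2 fold change over the square root of F. Log2 CPM used a prior count of 2, and ratios of members used an exact permutation test and the same threshold of 0.1. The scripts were tested on simulated data. A floor of 3 counts per library, which covers counting error only, was used for lower bounds.

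The members, the 15 gene lists and the tests were chosen with earlier results of these data known. Named genes are the members, the other called keratins, up to 4 genes of each list (called ones first, then by abundance), the 3 genes most like each member, and Thra. Further genes (Flg, Flg2, Dsc1, Krt2, Cdsn, Crnn, Cnfn, Rhcg, Sprr3, Krt75, Krt76, Pax9, Ly6g, S100a8, S100a7a, Gjb6, Il36a, Scel, Grhl3, Ovol1, Wnt7a, Foxa2 and Gm11597) were named after their values were seen. Alternatives were DESeq2 1.42.0, 2 other normalizations, a filter of 1 count, a replicate block, limma 3.58.1 (voom with quality weights, and log2 TPM with pseudocounts of 1 and 0.1), each of the 8 libraries left out, an adjusted p of 0.05, Krt6a and Krt6b summed, and a prior count of 0.5 for the ratios.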

Additional observations from a re-analysis of the deposited data

Results flagged for a closer look

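Each set of 4 values (members, ratios and list sums, by genotype) was searched for a library whose gap to its neighbour took up most of the set's range (Dixon's test at 95%), which chance gives in about 1 of 20 sets. Of 56 sets, 3 had one, about as many as chance gives. The log2 Krt4/Krt13 ratio of Thra1PV/+ replicate 4 lay far below the other mutant libraries (gap of 0.9 of the range), with 40 Krt4 counts against 154 to 255. The log2 Krt4/Krt1 ratio of WT replicate 3 was far below the other WT libraries (0.845), where Krt4 had 3 counts. The summed hair follicle and melanocyte level of WT replicate 2 was far below the other WT libraries (0.906), at 6.75 CPM.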

How the results depend on the processing

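All 114 values of the members' log2 fold changes under the alternatives were above 0. Krt13 kept its call with the 2 other normalizations, the looser filter, DESeq2, voom and both TPM pseudocounts, and lost it with a replicate block (adjusted p = 0.212), at an adjusted p of 0.05, and in 7 of 8 fits with 1 library left out. Members called, 1 by edgeR, were 6 with DESeq2, 2 with voom (Krt13 and Krt1) and 2 on log2(TPM + 0.1) (Krt13 and Krt16). They were 0 with a replicate block and at an adjusted p of 0.05, and 0 to 1 with 1 library left out. At an unadjusted edgeR p under 0.05 there were 6 of 7 members, against 1775 of all 18174 tested genes. All genes called, 180 by edgeR (168 higher, 12 lower), were 793 with DESeq2 (567 higher, 226 lower), 311 with voom (253 and 58), 82 with a replicate block and 119 at an adjusted p of 0.05, and 81 to 167 with 1 library left out. Same-numbered libraries were not consistently alike: the correlations of their residuals were 0.27, -0.44, 0.34 and -0.16, and not every library correlated best with its own number. These correlations cannot show whether libraries were processed in pairs.

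With 1 library left out, the genotype difference of the log2 ratios was 0.90 to 1.57 for Krt1/Krt10, -6.37 to -2.71 for Krt4/Krt13, -0.94 to 0.25 for Krt6a/Krt16, -0.04 to 0.78 for Krt6b/Krt6a, -0.38 to 1.40 for Krt4/Krt1 and 5.08 to 7.56 for Krt13/Krt10. Without WT replicate 3, Krt4/Krt13 (-6.37) and Krt13/Krt10 (7.56) had an exact adjusted p of 0.0857; the smallest exact p of 3 against 4 libraries is 0.0286. Sign changes arose for differences within the spread: Krt6a/Krt16 without Thra1PV/+ replicate 1 (0.0138), WT replicate 2 (0.107) or WT replicate 3 (0.246), Krt6b/Krt6a without WT replicate 2 (-0.0381) and Krt4/Krt1 without WT replicate 3 (-0.378). A prior count of 0.5 changed no direction or call, but moved Krt6a/Krt16 from -0.33 to -1.29. The cause of these changes was not tested. Krt4 had at most 61 counts and Krt16 at most 10 counts in any WT library, which limits their ratios there.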
